A study of Mus musculus with 7 samples.

Results

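Genes of myelin, the lipid-rich sheath that Schwann cells wrap around axons in peripheral nerve, were chosen by symbol. They were Mbp, Pmp22, Mag, Cnp, Egr2, Drp2, Fa2h, Ugt8a, Pllp and Mal, and all 10 were measured among the 22180 genes with a value. Transcript levels came from 1-colour arrays of whole tissue from C57Bl/6 mice. Blastemas, the cell masses that form at an amputated digit tip, were taken 2 weeks after amputation (n = 3) and set against uninjured digits (n = 4). The study concerns Schwann cell precursors of the nerve in digit tip regeneration, so the comparison asks how far genes of the mature, myelinating Schwann cell differ between the regenerating and the intact digit. Per the labels, replicates are biological. They name no transgene, batch, age or pooling.

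A Schwann cell that myelinates wraps its membrane many times around 1 axon and compacts it. The transcription factor EGR2, together with SOX10, switches on genes of myelin proteins and of the lipids that fill the membrane, and after nerve injury Schwann cells lower these genes and take up an immature, repair-like state. Several of the 10 genes are also used outside nerve: Mal, Pllp and Fa2h in epithelia, and Pmp22 in fibroblasts and many other cells.

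None of the 10 genes passed the test between blastema and uninjured digit. By limma with Benjamini-Hochberg adjustment over all genes, 0 were called higher and 0 lower at an adjusted p of 0.05, where 9.64% of all 22180 genes were called. The smallest adjusted p among the 10 was 0.0994. At an unadjusted p under 0.05 there were 3, Mbp and Pllp below and Pmp22 above in the blastema, and 24.9% of all genes reached that level. The differences, blastema minus uninjured on the log2 scale, ran from -0.42 to 0.43 with a median of 0.04, against a median of -0.01 over all genes. Their 95% intervals all lay between -0.81 and 0.81, which is 0.571-fold to 1.75-fold. A 2-fold change of the measured level, in either direction, thus lay outside the interval of each of the 10. The intervals do not cover a change hidden by low signal in genes near background.

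**Figure D1:**
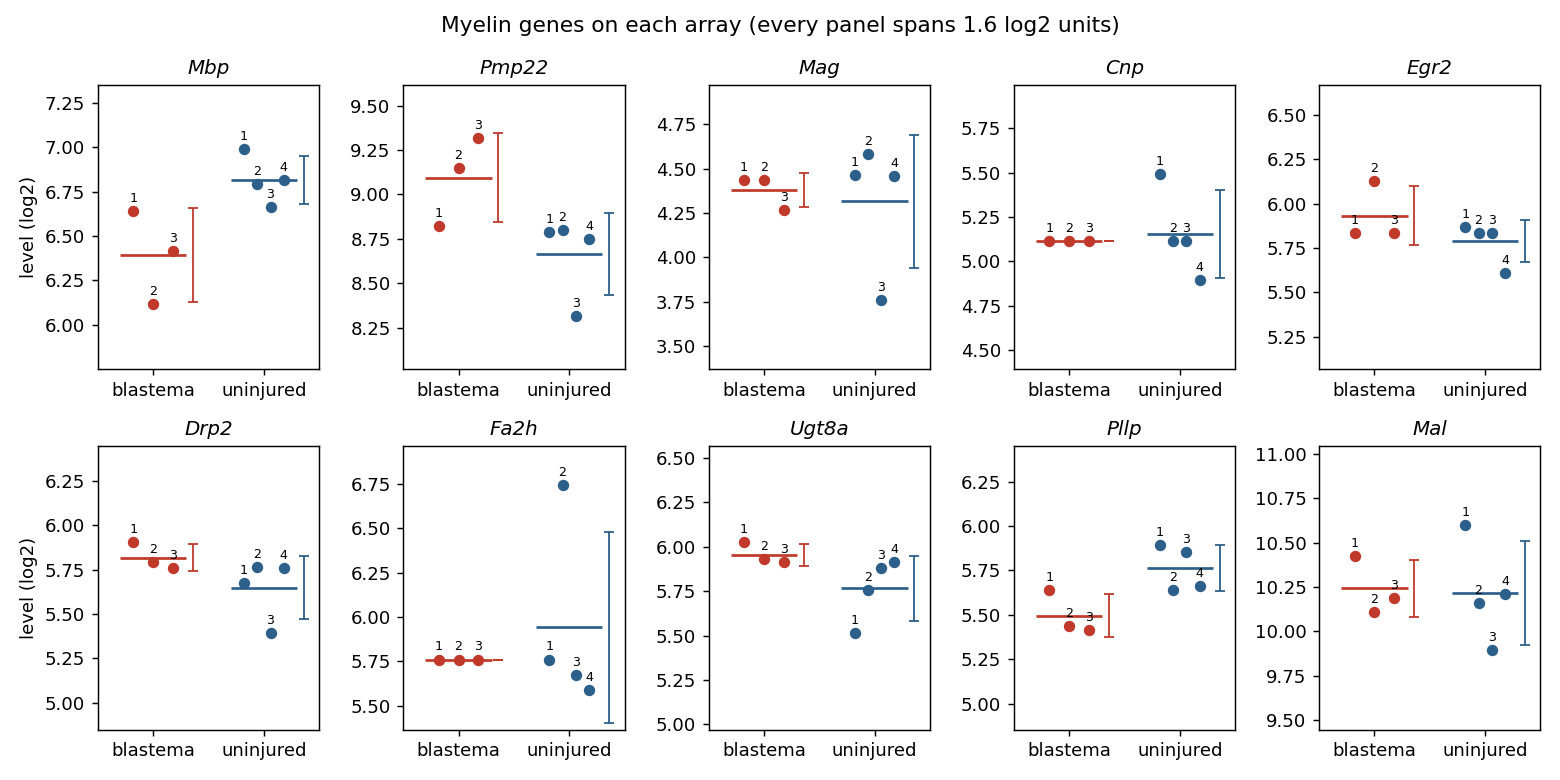
Level of each of the 10 genes (log2, vertical axis) on the 3 blastema arrays (red, left) and the 4 uninjured arrays (blue, right), with the array number above each point, the group mean as a bar and the SD beside it. The groups are apart in Mbp and Pmp22, where blastema array 1 lies next to the uninjured arrays, and a single uninjured array stands away from the other 3 in Mag, Fa2h, Egr2 and Pmp22.

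Each gene was read from 1 probe set. As a rough guide to background, 95% of 1105 olfactory receptor genes, which digit tissue has little reason to express, had a mean level under 5.52. By this guide 5 of the 10 genes were above background on all 7 arrays (Mbp, Pmp22, Egr2, Fa2h and Mal), 3 on some arrays (Drp2, Ugt8a and Pllp), and Mag and Cnp on none, so a change in the last 2 could be hidden by low signal. Identical values on several arrays were common in the table: 7 of the 10 genes had a value shared by at least 2 arrays, against 52.9% of all genes. In Cnp, Fa2h and Egr2 a value was shared by 4 or more, against 13.2% of all genes. Such sharing was found in 20% of genes with a mean under the guide and in 8.23% of those over it. Egr2 and Fa2h had group means of 5.79 to 5.93 and 5.76 to 5.94. Those of Drp2 (5.65 and 5.82), Ugt8a (5.77 and 5.96) and Pllp (5.50 and 5.76) were near the guide too. A change in any of these genes could be hidden as well. In bulk tissue, fewer Schwann cells and less RNA per Schwann cell cannot be told apart.

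Mbp encodes myelin basic protein, which holds the inner faces of the compacted membrane together. It lay at 6.64, 6.11 and 6.41 in the 3 blastemas, against 6.99, 6.79, 6.66 and 6.81 in the 4 uninjured digits. All blastemas were below all uninjured digits, though blastema array 1 came close to uninjured array 3. The difference was -0.42 ± 0.13 (SE), or 0.745-fold, with a 95% interval of -0.74 to -0.11 (limma adjusted p = 0.0994). Without blastema array 1 it was -0.55 and passed (limma adjusted p = 0.0441), as it did with array weights (0.0466). Over all alternative settings the adjusted p ran from 0.0441 to 0.243.

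Pmp22 encodes a small membrane protein of compact myelin whose dosage causes inherited neuropathy, and it was first described as a growth arrest gene of fibroblasts. It lay at 8.82, 9.15 and 9.32 in the blastemas, against 8.79, 8.80, 8.32 and 8.75 in the uninjured digits. Every blastema was above every uninjured digit, again with array 1 the blastema nearest to them. The difference was 0.43 ± 0.16 (SE), or 1.35-fold (95% interval 0.06 to 0.81, limma adjusted p = 0.146), and no alternative setting gave a call (0.0698 to 0.383). Mbp and Pmp22 were the 2 of the 10 genes whose groups did not overlap, 1 in each direction, where 21.0% of all genes had groups that did not overlap.

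Fibroblast markers moved with Pmp22 on the arrays. Of 10 such markers 7 rose and 0 fell (median difference 2.02), where 4.98% of all genes rose. The largest rises were those of the collagen chains Col1a1 (3.48 ± 0.27 SE) and Col1a2 (3.35 ± 0.28). Pdgfra, a defining marker, was not called (0.89, limma adjusted p = 0.0764). It lay at 8.76, 9.53 and 9.61 in the blastemas, against 8.47, 8.72, 7.93 and 8.53 in the uninjured digits. Dpt (0.80, adjusted p = 0.14) and Dcn (0.11, adjusted p = 0.806), named after their values were seen, were not called either. The mean level of the list was 10.04, 10.63 and 10.67 in the blastemas, against 8.55, 8.86, 7.90 and 8.64 in the uninjured digits. Its lowest value fell on uninjured array 3, as did those of Pmp22, Mag, Drp2 and Mal. Among the blastemas it was lowest on array 1, as was Pmp22, whereas Drp2 and Mal were highest there and Mag shared its highest value between arrays 1 and 2. The fibroblast list was not alone in this. The mean level of 10 macrophage markers was 6.85, 7.10 and 7.24 in the blastemas, against 6.38, 6.59, 6.35 and 6.53 in the uninjured digits. Keratinocyte markers instead had their lowest means on blastema array 3 and uninjured array 1. What part fibroblasts, macrophages or other cells have in the levels of Pmp22 was not tested.

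Upstream sequence is shown for Pmp22 and Pllp, the 2 genes with the smallest p among the 7 whose promoter windows were searched. It is also shown for Mag, the gene of the 7 most closely tied to myelin. Mbp, whose p was smaller than theirs, was left out of the search by rule, so the motif counts do not cover it. Drp2 and Fa2h had no window in the RefSeq table. Each line holds the 250 bases before the annotated start that lies farthest upstream, read 5′ to 3′ on the gene's strand (RefSeq, build GRCm38.p6). Capitals mark a SOX motif (ACAAAG or ACAATG, either strand). An EGR motif (GCGNGGGCG, either strand) was searched as well and the 2 motifs do not overlap in these windows.
Pmp22, chr11:63128732-63128981, plus strand: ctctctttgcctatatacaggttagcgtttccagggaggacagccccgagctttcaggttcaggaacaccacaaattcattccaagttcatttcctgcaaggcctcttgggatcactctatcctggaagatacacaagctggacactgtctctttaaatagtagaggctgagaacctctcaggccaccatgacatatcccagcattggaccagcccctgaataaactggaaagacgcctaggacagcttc
Pllp, chr8:94696243-94696492, minus strand: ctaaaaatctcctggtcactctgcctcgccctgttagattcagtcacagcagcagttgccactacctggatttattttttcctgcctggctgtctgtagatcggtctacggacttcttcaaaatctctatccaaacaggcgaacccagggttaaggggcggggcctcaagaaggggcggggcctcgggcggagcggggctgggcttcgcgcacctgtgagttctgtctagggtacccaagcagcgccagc
Mag, chr7:30914923-30915172, minus strand: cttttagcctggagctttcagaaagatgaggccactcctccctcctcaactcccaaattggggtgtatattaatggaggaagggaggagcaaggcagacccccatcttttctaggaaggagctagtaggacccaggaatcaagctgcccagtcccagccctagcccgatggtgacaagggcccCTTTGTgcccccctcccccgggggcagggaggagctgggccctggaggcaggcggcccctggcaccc
A SOX motif was found in Mag, beginning at base 184 of the 250, and not in the Pmp22 and Pllp windows. Of the 7 genes searched, 16 windows in all, Mag and Cnp held a SOX motif and 0 genes an EGR motif. Of the 32851 windows of the same length that were searched, 25.2% held the SOX motif and 4.70% the EGR motif. These matches describe the letters in these windows and say nothing of binding. Pmp22 has 4 annotated starts in this table, and its 1 probe set gives no separate value for them.

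Mag encodes myelin-associated glycoprotein, the adhesion molecule at the inner face between sheath and axon. It lay at 4.43, 4.43 and 4.27 in the blastemas, against 4.46, 4.58, 3.76 and 4.46 in the uninjured digits. The blastemas fell within the range of the uninjured digits, of which array 3 was far below the other 3. The difference was 0.06 ± 0.19 (SE, 95% interval -0.39 to 0.51, limma adjusted p = 0.875). Without uninjured array 3 it was -0.12 (limma adjusted p = 0.414), so the sign rests on that array.

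Cnp encodes the phosphodiesterase of uncompacted, cytoplasm-filled myelin channels. It was listed at 5.11 in all 3 blastemas, against 5.49, 5.11, 5.11 and 4.90 in the uninjured digits. The same value stood on 5 of the 7 arrays, and the uninjured digits lay on both sides of the blastemas. The difference was -0.04 ± 0.13 (SE, 95% interval -0.35 to 0.27, limma adjusted p = 0.882), and it was 0.07 without uninjured array 1 (adjusted p = 0.595).

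Egr2 encodes the zinc finger factor that drives the myelin programme, and it is also an inducible gene of other cell types. Its levels were 5.84, 6.13 and 5.84 in the blastemas, against 5.87, 5.84, 5.84 and 5.61 in the uninjured digits. Blastema array 2 was the highest of the 7 and uninjured array 4 the lowest, with the other 5 close together. The difference was 0.14 ± 0.10 (SE, 95% interval -0.09 to 0.38, limma adjusted p = 0.43). It was 0.048 without blastema array 2, 0.086 without uninjured array 4 and 0.22 without both arrays numbered 1.

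Drp2 encodes dystrophin-related protein 2, which with periaxin and dystroglycan fastens the outer surface of the sheath. It lay at 5.90, 5.79 and 5.76 in the blastemas, against 5.68, 5.77, 5.39 and 5.76 in the uninjured digits. The groups overlapped, with uninjured array 3 the lowest. The difference was 0.17 ± 0.10 (SE, 95% interval -0.07 to 0.41, limma adjusted p = 0.366), and 0.084 without uninjured array 3. Of 13 measured genes in a list of the dystroglycan complex, its laminin ligand and the laminin-binding integrin chains Itga6 and Itgb4, 3 rose and 0 fell (median difference 0.18), where 4.98% of all genes rose. They were the sarcoglycans Sgce (0.99 ± 0.24 SE) and Sgcb (0.54 ± 0.10) and, named after its values were seen, dystroglycan itself, Dag1 (0.35 ± 0.06). Leaving out 1 of the 7 arrays ended the call of Sgce in all cases but uninjured array 2 (adjusted p = 0.0559 to 0.171), that of Sgcb in all but blastema array 1 and uninjured array 1 (0.0592 to 0.0877), and that of Dag1 without blastema array 2 or 3 (0.0562 and 0.067). Scaling to reference genes ended the calls of Sgcb and Dag1 (0.0561 and 0.0582).

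Fa2h and Ugt8a make the galactolipids of myelin: FA2H adds a hydroxyl group to the fatty acid and UGT8 joins galactose to ceramide. Fa2h was listed at 5.76 in all 3 blastemas, against 5.76, 6.74, 5.67 and 5.59 in the uninjured digits. Uninjured array 2 was high, and the other 3 were level with the blastemas or slightly below. The difference was -0.18 ± 0.27 (SE, 95% interval -0.81 to 0.45, limma adjusted p = 0.727), and without uninjured array 2 it was 0.09 (adjusted p = 0.496). FA2H is also an enzyme of sebaceous gland and epidermis. On the same uninjured array 2 the sebaceous gland markers Krt79 (8.11), Far2 (8.13) and Elovl3 (7.43), named after their values were seen, were at their highest, against 5.94 to 7.24, 4.91 to 5.55 and 3.89 to 4.62 on the other uninjured arrays. The mean level of the 9 measured sebaceous markers was 6.12 to 6.18 in the blastemas and 7.38 on uninjured array 2, against 6.23 to 6.29 on the other uninjured arrays. Of the defining markers, Mc5r was highest on blastema array 3 (6.80), with 6.61 on uninjured array 2, and Awat2 stayed under the background guide on all arrays. What part sebaceous tissue has in the Fa2h level was not tested. Of these 9 markers 1 fell, Dgat2, an enzyme of triglyceride synthesis (-0.65 ± 0.12 SE), where 4.66% of all genes fell, and its call was lost in 5 of the 7 omissions, all but blastema array 1 and uninjured array 1 (adjusted p = 0.0515 to 0.0762).

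**Figure D2:**
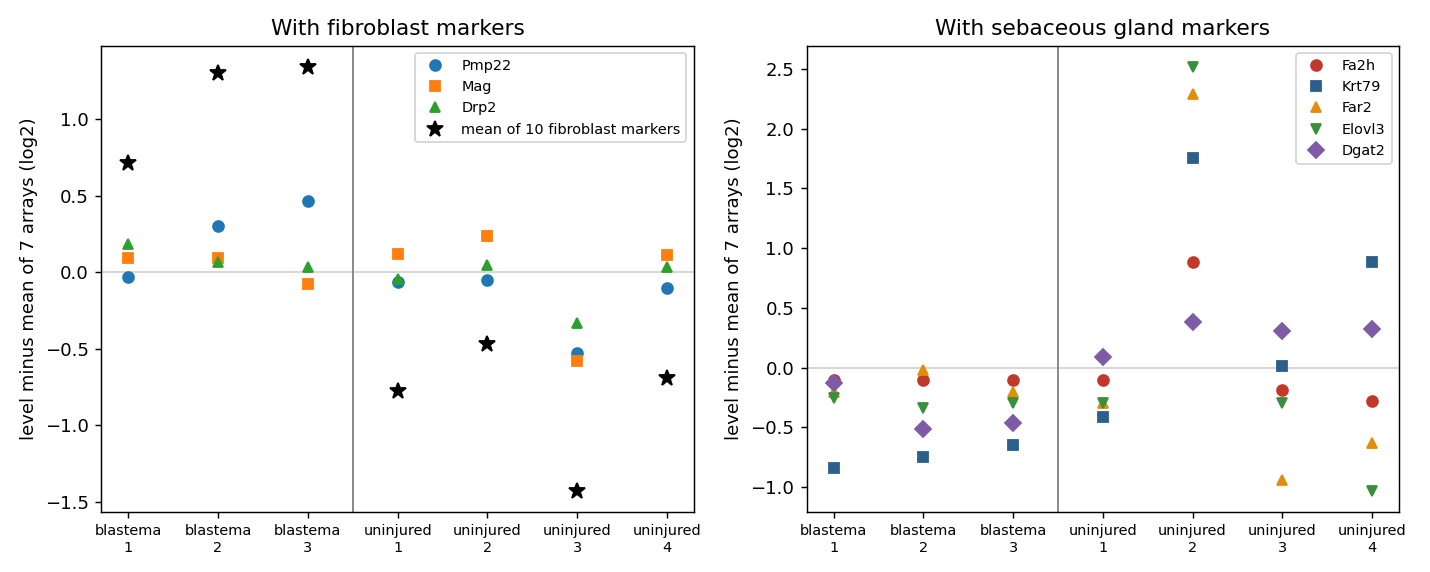
Levels minus the mean of the 7 arrays (log2, vertical axis) on each array, blastemas left of the line and uninjured digits right of it. The left panel sets Pmp22, Mag and Drp2 beside the mean of 10 fibroblast markers, all lowest on uninjured array 3. The right panel sets Fa2h beside Krt79, Far2, Elovl3 and Dgat2, all highest on uninjured array 2.

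Ugt8a lay at 6.03, 5.93 and 5.91 in the blastemas, against 5.51, 5.76, 5.88 and 5.91 in the uninjured digits. The lowest blastema and the highest uninjured digit shared 1 value, so the groups touched. The difference was 0.19 ± 0.10 (SE, 95% interval -0.06 to 0.44, limma adjusted p = 0.316). It was 0.11 without uninjured array 1 and 0.071 without both arrays numbered 1.

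Pllp encodes plasmolipin and Mal the related proteolipid MAL, both membrane proteins with 4 spans that sort lipids and proteins in myelin and in epithelial cells. Pllp lay at 5.64, 5.43 and 5.42 in the blastemas, against 5.89, 5.64, 5.85 and 5.66 in the uninjured digits. Blastema array 1 and uninjured array 2 shared 1 value, and the other blastemas were below every uninjured digit. The difference was -0.27 ± 0.09 (SE), or 0.832-fold (95% interval -0.49 to -0.04, limma adjusted p = 0.135, and 0.0778 to 0.344 over the alternatives). Only blastema array 1 was above the background guide in its group, against all 4 uninjured arrays.

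Mal lay at 10.42, 10.11 and 10.19 in the blastemas, against 10.60, 10.16, 9.89 and 10.21 in the uninjured digits. The blastemas lay inside the range of the uninjured digits, and array 1 was the highest of each group. The difference was 0.03 ± 0.16 (SE, 95% interval -0.36 to 0.41, limma adjusted p = 0.945). It was -0.07 without blastema array 1, -0.08 without uninjured array 3 and -0.0012 when scaled to reference genes, so it has no settled sign.

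**Figure D3:**
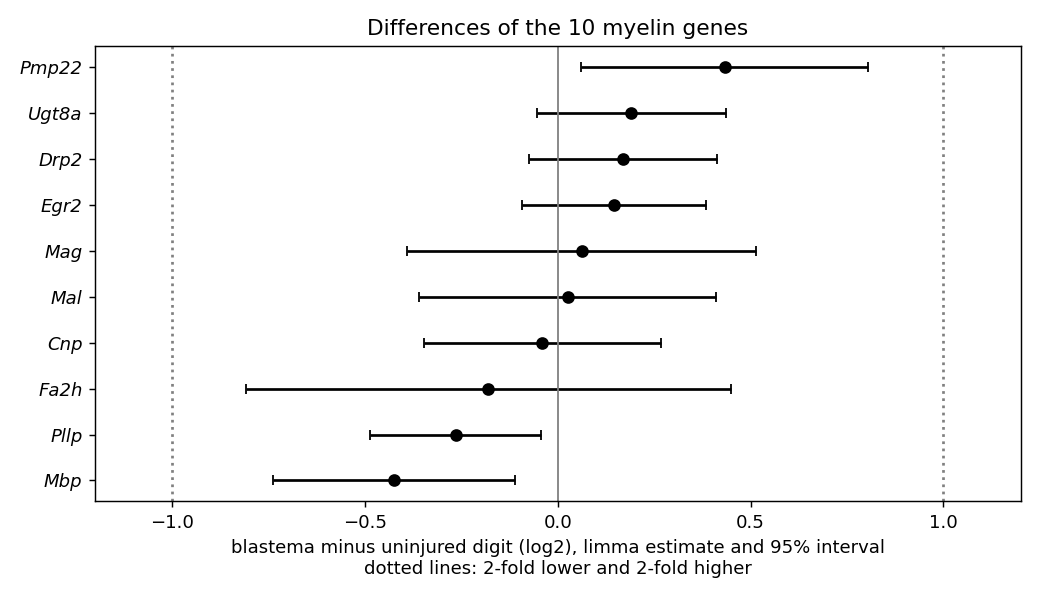
Difference between blastema and uninjured digit (log2, horizontal axis) of the 10 genes, as the limma estimate with its 95% interval. All 10 intervals lie inside the dotted lines for a 2-fold change, and those of Mbp, Pllp and Pmp22 leave out 0 before adjustment.

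The label of the list was checked against markers of the cell type. Of the defining Schwann cell markers, Sox10 lay at 5.65, 5.37 and 5.48 in the blastemas, against 5.67, 5.45, 5.58 and 5.49 in the uninjured digits, around the background guide of 5.52. S100b was under the guide on all arrays (4.80 to 4.97 in blastemas, 4.97 to 5.31 in uninjured digits). Prx was not analysed here. Neither Sox10 (-0.05, 95% interval -0.25 to 0.16, limma adjusted p = 0.795) nor S100b (-0.14, -0.38 to 0.10, adjusted p = 0.451) passed, and Sox10 was 0.02 without blastema array 2. S100b was -0.084 without blastema array 1 and -0.057 without uninjured array 4. These arrays therefore do not show that the signal of the 10 genes comes from Schwann cells. Markers of the other cell that makes myelin, the oligodendrocyte of the central nervous system, were near or under the guide, with Mog at 5.61 to 5.74 in blastemas and 5.59 to 5.74 in uninjured digits, and Mobp and Opalin under 5.52 on all arrays. Of 10 such markers 0 were called, where 9.64% of all genes were called. The smallest p was that of Omg (0.15, limma adjusted p = 0.311, and 0.096 without blastema array 1 and 0.099 without uninjured array 2). The keratinocyte marker Krt14 was high on all arrays (11.62 to 11.82 in blastemas, 11.53 to 11.92 in uninjured digits), so the tissue includes epidermis.

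The other myelin proteins gave the same count as the 10 genes. Among 10 measured there were 0 calls in either direction and the median difference was -0.06. Pmp2, the fatty acid binding protein of myelin, differed by -0.06 (95% interval -0.54 to 0.41, limma adjusted p = 0.88) and was 0.13 without uninjured array 4. Ncmap, a protein of uncompacted myelin, differed by -0.20 (-0.51 to 0.12, limma adjusted p = 0.418), and by -0.099 without blastema array 3 and -0.11 without uninjured array 1. The smallest p was that of the deacetylase Sirt2 (0.21 ± 0.06 SE, limma adjusted p = 0.0594), which passed with array weights (0.0446), the level filter (0.0398) and the background guide (0.0379). Among 9 genes of demyelinating neuropathy 0 were called as well, with a median of -0.05 and the smallest p in Arhgef10, a guanine nucleotide exchange factor (-0.39 ± 0.13, limma adjusted p = 0.104, and -0.16 with probe sets averaged).

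Genes of the nodes of Ranvier and the paranodes beside them, where myelin ends on the axon, went both ways. There were 3 that rose and 2 that fell among 12 measured (median -0.02), where 4.98% of all genes rose and 4.66% fell. Gldn, which encodes gliomedin, a Schwann cell protein that gathers sodium channels at the node, lay at 7.55, 7.98 and 8.02 in the blastemas, against 6.40, 6.57, 5.85 and 6.17 in the uninjured digits, a difference of 1.60 ± 0.19 (SE). Every blastema was above every uninjured digit. The band 4.1 proteins Epb41l2 (1.37 ± 0.19) and Epb41l3 (0.70 ± 0.15) rose, and the adhesion molecule Nrcam (-0.77 ± 0.18) and the scaffold Ank3 (-0.38 ± 0.06) fell. Epb41l3, Nrcam and Ank3 are named after their values were seen. Gldn, Epb41l2 and Ank3 passed in all 7 omissions of 1 array. Epb41l3 passed only without blastema array 1 or uninjured array 1 (adjusted p = 0.0567 to 0.105 otherwise), and Nrcam in 0 of the 7 (0.05 to 0.132).

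Regulators of myelination were listed as drivers and brakes. Among 14 measured drivers, 1 rose and 2 fell (median -0.01), where 4.98% of all genes rose and 4.66% fell. Nrg1, the neuregulin ligand that axons use to instruct Schwann cells, rose (0.66 ± 0.15 SE), and its receptors Erbb3 (-0.59 ± 0.13) and Erbb2 (-0.32 ± 0.07, named after its values were seen) fell. Erbb3 lay at 7.97 to 8.54 in blastemas and 8.74 to 8.95 in uninjured digits, above the background guide on all arrays. Which cells of the whole tissue hold the transcripts of Nrg1 and its receptors was not tested. Pou3f1, a factor that acts just before Egr2, differed by -0.29 (95% interval -0.55 to -0.04, limma adjusted p = 0.152), and by -0.17 without blastema array 2. The calls did not hold well: Nrg1 passed only without blastema array 2 (adjusted p = 0.0674 to 0.107 otherwise), Erbb3 only without blastema array 1 (0.0653 to 0.111), and Erbb2 only without blastema array 1 or uninjured array 1 (0.0628 to 0.116). Nrg1 also failed with array weights (0.0535) and without both arrays numbered 1 (0.168). Of 7 brakes on myelination 0 rose and 1 fell, the receptor Notch1 (-0.40 ± 0.07), in all 7 omissions too. Jun, a factor of the repair state, differed by 0.15 (-0.09 to 0.39, limma adjusted p = 0.412), and by 0.057 without blastema array 1 and 0.27 without blastema array 3.

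Markers of the Schwann lineage and of its immature and repair states were set beside the 10 genes. Of 11 lineage genes 1 rose, the matrix gene Matn2 (0.78 ± 0.15 SE), and 1 fell, Erbb3, with a median of -0.05. Over all genes 4.98% rose and 4.66% fell. Matn2 lost its call without blastema array 2 or 3 or uninjured array 4 (adjusted p = 0.0824, 0.0877 and 0.0594), and Erbb3 in 6 omissions, all but blastema array 1 (0.0653 to 0.111). Among 13 immature and repair genes, 2 rose and 0 fell (median 0.06). The adhesion molecules N-cadherin, Cdh2 (2.78 ± 0.21), and Ncam1 (1.79 ± 0.24) rose in all omissions too. Both are also made by mesenchymal cells; fibroblast markers rose on the same arrays, and their part in these levels was not tested. Ngfr, the low affinity neurotrophin receptor of immature Schwann cells, differed by 0.26 (95% interval -0.10 to 0.62, limma adjusted p = 0.344), and by 0.13 without uninjured array 4.

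**Figure D4:**
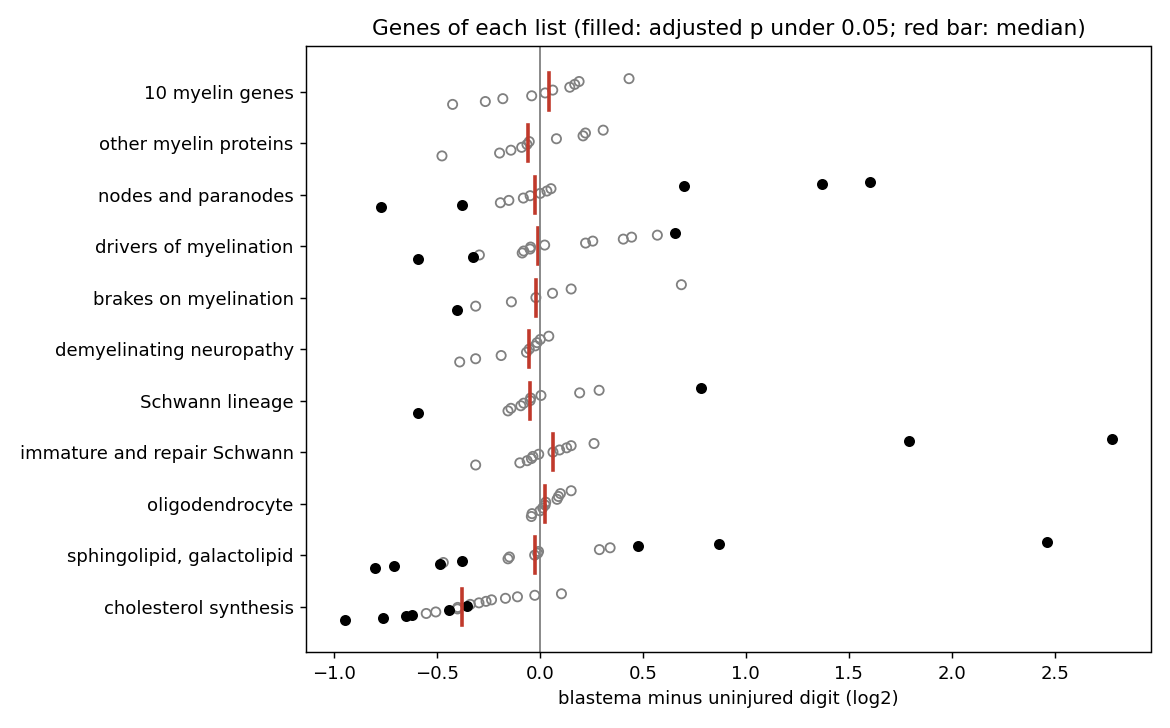
Difference between blastema and uninjured digit (log2, horizontal axis) of each measured gene in 11 lists, with filled points for an adjusted p under 0.05, open points for the others and a red bar at the median. The 10 myelin genes and the other myelin proteins hold no filled point and lie between -0.48 and 0.43, the node and repair lists each hold genes above 1, and the cholesterol list has a median of -0.38.

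Myelin membrane is rich in cholesterol and sphingolipids, and genes of both syntheses were listed. Among 18 measured genes of cholesterol synthesis, 0 rose and 6 fell (median -0.38, and -0.40 when scaled to reference genes), where 4.66% of all genes fell. The largest falls were those of Pmvk, the phosphomevalonate kinase (-0.95 ± 0.16 SE), and Ebp, a sterol isomerase (-0.76 ± 0.13). Their number was 5, 2 and 0 without blastema array 1, 2 or 3 and 8, 2, 3 and 4 without uninjured array 1, 2, 3 or 4, while the median stayed between -0.47 and -0.33 over all alternatives. Pmvk and Ebp lost their calls without blastema array 3 (adjusted p = 0.0634 and 0.0721). Of 11 keratinocyte markers on the same arrays, 5 fell, 0 rose and 6 were not called, where 4.66% of all genes fell. The largest falls were those of Krt15 (-2.30 ± 0.48) and the cornified envelope gene Lor (-0.87 ± 0.13). The others that fell, named after their values were seen, were Flg (-0.48), Ivl (-0.58) and Dsg1a (-0.56). The mean level of the 11 was 10.52 to 10.69 in blastemas and 10.85 to 11.15 in uninjured digits. Among those not called, the defining marker Krt14 differed by -0.08 (limma adjusted p = 0.679). Dsp (0.01) and Dsc3 (0.05), named after their values were seen, were not called either. Lor and Flg passed in all omissions, Krt15 only without uninjured array 1 (0.0588 to 0.105 otherwise), Ivl only without uninjured array 2 or 3 (0.0501 to 0.0959) and Dsg1a only without uninjured array 1 (0.0803 to 0.172). The part of epidermis in the cholesterol genes was not tested.

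Among 15 sphingolipid and galactolipid genes, 3 rose and 4 fell (median -0.03), where 4.98% of all genes rose and 4.66% fell. Sgms2, a sphingomyelin synthase, had 9.69, 10.41 and 9.99 in the blastemas, against 7.72, 7.55, 7.26 and 7.73 in the uninjured digits, a difference of 2.47 ± 0.19 (SE). Cers2, the ceramide synthase of very long chains (0.87 ± 0.17), and Sptlc2 (0.47 ± 0.08) rose too. With the probe sets of a gene averaged, Cers2 differed by 0.46 (limma adjusted p = 0.0242). Sptlc1 (-0.71 ± 0.10), which with SPTLC2 forms the first enzyme of the pathway, Degs1 (-0.80 ± 0.15), Elovl1 (-0.48 ± 0.12) and Smpd1 (-0.38 ± 0.09) fell. All but Sgms2 and Cers2 are named after their values were seen. Sgms2 and Sptlc1 passed in all omissions. Cers2 failed without blastema array 2 or 3 or uninjured array 2 (adjusted p = 0.076, 0.0655 and 0.0573), Sptlc2 without blastema array 3 (0.0516), Degs1 in all but uninjured array 1 (0.0505 to 0.0705), Elovl1 in all but blastema array 1 and uninjured array 1 (0.0898 to 0.145) and Smpd1 in all but blastema array 1 (0.0606 to 0.112). Smpd1 failed when scaled to reference genes (0.07).

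Relatives of Mal, Pllp and Pmp22 were listed by family, and 4.98% of all genes rose and 4.66% fell. In the MAL and CMTM family 3 of 13 genes rose, 1 fell and the other 9 were not called (median 0.06). Cmtm3 (1.42 ± 0.13 SE) and Myadm (1.07 ± 0.13) rose in all omissions, and of those named after their values were seen Cmtm4 rose (0.71 ± 0.13) and Marveld2, a tight junction protein, fell (-0.50 ± 0.12). Cmtm4 failed without blastema array 2 or 3 or uninjured array 2 or 4 (adjusted p = 0.0796, 0.0847, 0.0557 and 0.058) and Marveld2 in all but uninjured array 1 (0.0637 to 0.156). Among 6 relatives of Pmp22, Tmem47 (2.05 ± 0.29) and Emp3 (1.72 ± 0.23) rose in all omissions, and Perp, a desmosome protein of epidermis named after its values were seen, fell (-0.26 ± 0.06). Perp lost its call in each of the 7 omissions (0.0509 to 0.112) and when scaled to reference genes (0.119). With probe sets averaged, Tmem47 differed by 1.21 (limma adjusted p = 0.0168). The list median was -0.03, and 3 of the 6 were not called.

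Markers of further cell types that could hold member transcripts were counted, and 4.98% of all genes rose and 4.66% fell. Of 10 macrophage markers 5 rose and 0 fell (median 0.52), led by the complement gene C1qb (1.23 ± 0.20 SE) and lysozyme, Lyz2 (1.12 ± 0.24), with mean levels of 6.85 to 7.24 in blastemas and 6.35 to 6.59 in uninjured digits. The other 3, named after their values were seen, were Csf1r (0.82), Cd68 (0.74) and C1qa (0.31). Adgre1, a defining marker beside Csf1r, was not called (0.29, limma adjusted p = 0.219). C1qb passed in all omissions, and the count was 1 without blastema array 2 or 3 or uninjured array 3 or 4 (and 3 when scaled to reference genes, with Cd68 and C1qa lost at 0.0614 and 0.112). Lyz2 failed without those 4 arrays (adjusted p = 0.112, 0.119, 0.0872 and 0.0593). Of 6 T cell markers 0 were called (median 0.07), with the smallest p in Cd3e (0.15, limma adjusted p = 0.196). Of 6 melanocyte markers 0 were called (median 0.07), with the smallest p in Pmel (-0.16, limma adjusted p = 0.291, and -0.099 without blastema array 3). Of 8 axon genes 1 fell, the tubulin gene Tubb3 (-0.54 ± 0.10), and 0 rose (median -0.03). Tubb3 failed without blastema array 2 or 3 or uninjured array 3 or 4 (0.0823, 0.0912, 0.0668 and 0.0521). What part these cells have in the levels of the 10 genes was not tested.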

How the data were processed

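The deposited levels are log2 values from RMA, run by the authors in R with oligo (per the submitters' processing notes). Because RMA also evens out the arrays, a global difference in RNA content would not show. Versions, settings and build were not stated in what was used here. RNA input was 400 ng per sample, per the labels' protocols. The table holds 41345 probe sets (values 0.66 to 13.70, array medians 5.53 to 5.58). Arrays have no read depth, and their number limits the precision.

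Genes came from 23521 probe sets with 1 symbol in the platform annotation, the brightest per gene over the 7 arrays. The test was the moderated one of limma 3.58.1 under R 4.3.3 (lmFit, eBayes), over 22180 genes with no covariate or filter, two-sided and adjusted by Benjamini-Hochberg. The step was tested on simulated data. Figures used Python 3.11.15 and matplotlib 3.10.9.

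The 10 members and the 21 other lists (239 genes in all, 222 measured) were chosen with earlier results of these data known, so counts and medians are given with no list test. All members are named, with the 2 largest called changes of each other list (the smallest p where none passed) and 9 measured genes fixed by name. Defining markers of Schwann cells, oligodendrocytes, keratinocytes and sebaceous gland are given by level where measured. Those of fibroblasts, macrophages, T cells and melanocytes are given by difference or not at all, except the level of Pdgfra. Any further gene with a value is marked as named after its values were seen. The 8 measured reference genes (median difference 0.15), used for scaling, included Gapdh (0.31, limma adjusted p = 0.0191, lost without blastema array 2 or 3 or uninjured array 3 at 0.0672, 0.0742 and 0.0514) and Rplp0 (-0.82, adjusted p = 0.0063).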

Additional observations from a re-analysis of the deposited data

Results flagged for a closer look

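In 11 of 78 genes examined, 1 uninjured array lay far from the other 3, by a gap, as a share of the group's range, over Dixon's critical value at 95%. Chance flags about 1 in 20 groups, and 17.7% of the genes whose 4 uninjured values were not all equal passed this limit. Of the 10 myelin genes, Pmp22 (0.89, array 3 low), Mag (0.848, array 3 low), Egr2 (0.871, array 4 low) and Fa2h (0.85, array 2 high) did so. The others were S100b (1), Ncam1 (0.911), C1qb (0.911), Pmel (1), Cd68 (0.912), C1qa (0.874) and Mog (0.881). In S100b and Pmel the other 3 uninjured arrays shared 1 value.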

How the results depend on the processing

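The 10 myelin genes gave 147 of 157 alternative values with the sign and the side of the threshold unchanged. The count called lower was 1 (Mbp) with array weights (-0.48) and without blastema array 1, and 0 to 1 over the omissions of 1 array; the count called higher was 0 throughout. Over these omissions Mbp ran from -0.55 to -0.29, Mag from -0.12 to 0.15, Cnp from -0.13 to 0.073, Egr2 from 0.048 to 0.19, Drp2 from 0.084 to 0.21, Fa2h from -0.30 to 0.087, Ugt8a from 0.11 to 0.24, Mal from -0.083 to 0.15, Pmp2 from -0.16 to 0.13 and Sox10 from -0.12 to 0.018. Signs also turned for Cnp with array weights (0.020) and without both arrays numbered 1 (0.073), Mal scaled to reference genes (-0.0012) and Pmp2 with the replicate block (0.13). The cause was not tested. All genes called numbered 1105 higher and 1034 lower, 295 and 304 with the replicate number as a block, and 457 to 1286 higher and 365 to 1009 lower over the omissions. The labels do not say whether equal numbers share an animal. Deviations of arrays with the same number correlated at 0.29, 0.15 and -0.07. Those numbered 1 and 2 matched their own number best, and those numbered 3 did not. So few arrays cannot decide whether the samples are paired, so the fit with the block cannot be set aside. Of 47 named genes that passed, 37 did not with the block and 18 passed in all omissions. Leaving out both arrays numbered 1 ended the calls of Nrg1, Cers2, Sgce, Nrcam, Smpd1, Sptlc2, Perp, Marveld2, Ivl and C1qa, and averaging probe sets those of Gapdh (0.18) and Smpd1. That omission and the background guide were chosen after seeing the data. Mag and Cnp were not tested under the background guide, nor Mag under the level filter. The alternative on further probe sets gave no value, as each member has 1.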
